A study of Homo sapiens with 16 samples.

Results

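PIF1 is a single gene, Ensembl identifier ENSG00000140451, and it was followed here through 16 PRO-seq libraries of LNCaP, an established cell line from a human prostate cancer. PRO-seq is a nuclear run-on assay that counts reads from RNA polymerases engaged on a gene, so it measures ongoing transcription and not the amount of mature mRNA. PIF1 is 1 of the 60605 genes in the deposited tables, and it was chosen by its measured log2 change, as the gene with the largest fall after 6 Gy of ionizing radiation (IR) that was shared by both experimental batches. The changes after IR are therefore given below as a description, without a test. In batch 1, 4 mock libraries were set against 4 libraries of cells given 6 Gy, each from 2 replicates with libraries t1 and t2 under 1 replicate number. What t1 and t2 mean is not given in the labels, so each pair was added up to give 1 replicate. In batch 2, the 4 groups were DMSO vehicle, 6 Gy with vehicle, 10 µM enzalutamide, and enzalutamide with 6 Gy, with 2 replicates each. Treatment lasted 90 min, and irradiated cells received the dose at 30 min and were collected 60 min later. All 6 groups were grown in medium with serum, and the labels mention the vehicle for batch 2 only. Nothing in the labels says that replicates came from separate cultures, so the spread between them may be technical.

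PIF1 is a DNA helicase, an enzyme that opens duplex DNA by moving along a strand with energy from ATP. It is known for resolving G-quadruplexes, for helping DNA polymerase delta during break-induced replication, and for removing telomerase from DNA ends, which was shown in yeast. In human cells it has nuclear and mitochondrial forms, and its abundance is known to follow the cell cycle, with most of it in late S and G2 phase. Many genes expressed late in the cycle carry a promoter element called CHR (cell cycle genes homology region), often with CCAAT boxes upstream. The CHR is bound by the MuvB complexes that repress or activate these genes. Enzalutamide is a drug used against prostate cancer.

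RefSeq places PIF1 on the minus strand at chr15:64815632-64827062 (GRCh38.p14, a patch release of the hg38 build that the submitters' notes name), a span of 11.4 kb that overlaps 0 other RefSeq genes. The sequences below are the bases directly before the start site in the RefSeq promoter table. The 4 beside PIF1 are examples, picked after the motifs were seen, from the genes that shared its pattern or came after it among the falls after IR. Capitals mark TTTGAA (the CHR), CCAAT on either strand (ATTGG when read from the other strand) and the CHR-like TTTAAA, which reads alike on both strands. The promoter table places the PIF1 start inside that span, next to the lower coordinate of its window. All sequences run 5′ to 3′ along the strand of the gene, and PIF1 has 250 bases and the others 120.
PIF1, chr15:64825648-64825897, minus strand: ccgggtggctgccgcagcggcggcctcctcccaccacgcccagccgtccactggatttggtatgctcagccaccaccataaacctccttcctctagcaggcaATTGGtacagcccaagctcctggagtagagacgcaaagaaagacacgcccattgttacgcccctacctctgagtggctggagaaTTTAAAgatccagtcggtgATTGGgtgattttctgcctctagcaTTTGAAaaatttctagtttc
PRR11, chr17:59155626-59155745, plus strand: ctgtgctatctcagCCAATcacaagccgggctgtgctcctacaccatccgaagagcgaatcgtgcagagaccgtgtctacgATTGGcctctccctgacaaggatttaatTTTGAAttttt
HMMR, chr5:163460512-163460631, plus strand: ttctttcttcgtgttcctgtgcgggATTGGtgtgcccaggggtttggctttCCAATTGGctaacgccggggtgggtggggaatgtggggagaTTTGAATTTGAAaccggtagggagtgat
CDCA8, chr1:37692396-37692515, plus strand: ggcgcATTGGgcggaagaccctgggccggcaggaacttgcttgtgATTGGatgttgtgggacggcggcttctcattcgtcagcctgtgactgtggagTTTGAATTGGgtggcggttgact
NEK2, chr1:211675622-211675741, minus strand: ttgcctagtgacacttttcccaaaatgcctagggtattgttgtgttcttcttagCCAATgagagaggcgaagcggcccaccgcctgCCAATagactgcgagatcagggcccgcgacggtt

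In PIF1 the TTTGAA began at position -20 from the start site, with a reversed CCAAT at -45 and another at -148, and TTTAAA at -64. In PRR11 the TTTGAA began at -11, with the nearest CCAAT at -39. HMMR had TTTGAA at both -28 and -22, and CDCA8 had it at -23. NEK2 had a pair of CCAAT boxes, at -66 and -34, and no TTTGAA in this window. Of the genes of the same kind that are not printed, EDNRB had TTTGAA at -113 and no CCAAT. CDCA3 had TTTGAA at -3, across the start site, with 1 CCAAT at -37. FAM72A had a reversed TTTGAA at -58 with CCAAT at -242, -114 and -82. AURKA, ZIM3, RACGAP1, UBE2C and FAM72B had no usable sequence in the promoter table and were not examined. Over the whole 300-base window of the table (250 before and 50 after the start), TTTGAA on either strand was found in 15.2% of 35116 promoters and CCAAT in 34.6%. TTTGAA together with at least 2 CCAAT, a combination chosen after the PIF1 sequence was seen, was found in 1.78% of all promoters and in 20 of the 52 late cell cycle genes in the table (38.5%). Of 29 other DNA helicase genes in the table, 2 held this combination (6.9%). Taken alone, CCAAT was found in 80.8% of the late cell cycle and 72.4% of the helicase promoters, and TTTGAA in 63.5% and 24.1%. The GC box GGGCGG, present in 45% of all promoters, 82.7% of the late cell cycle and 69% of the helicase promoters, was not found in the PIF1 window. The shares of the 2 gene lists use 1 promoter per gene, while the shares of all promoters use every promoter of full length, so their bases differ. A match is a description of the letters and not evidence of binding.

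Total counts ranged from 3438642 to 9363458 per library in batch 1 and from 10494563 to 19905824 in batch 2. No spike-in is mentioned in the labels, so all levels are relative to the other genes of a library, as CPM (counts scaled to library size) scaled by TMM factors. The prostate and LNCaP markers KLK3, HOXB13 and FOLH1 had counts in every library. FOLH1 lay between 811 and 1390 CPM, HOXB13 between 119 and 185 CPM and KLK3 between 5.28 and 215 CPM. KLK3 differed between the batches, with 179.6 ± 2.02 CPM in mock of batch 1 and 15.3 ± 2.56 CPM in vehicle of batch 2 (SD, n = 2). The cause of that difference was not tested. The 10 markers of blood, endothelial, stromal and basal cells summed to between 29.6 and 61.0 CPM, of which VWF had the most (11.6 to 37.3 CPM), and PTPRC, CD3E and KRT5 each had a count of 0 in at least 1 library.

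Transcription of PIF1 was lower in every irradiated library than in every library without IR, in both batches and with or without enzalutamide. The 8 libraries without IR lay between 25.6 and 37.9 CPM and the 8 irradiated ones between 4.32 and 8.02 CPM, so the ranges were separated by a wide gap. In the mock cells of batch 1, PIF1 had 33.4 (t1) and 37.9 CPM (t2) in replicate 1 and 26.0 (t1) and 33.2 CPM (t2) in replicate 2. After 6 Gy the same gene had 8.02 (t1) and 4.32 CPM (t2) in replicate 1 and 5.65 (t1) and 5.14 CPM (t2) in replicate 2. The t2 library was the higher of the pair in both mock replicates and the lower of the pair in both irradiated replicates. In batch 2, vehicle cells had 28.6 and 26.5 CPM (replicates 3 and 4), and cells with 6 Gy and vehicle had 6.07 and 6.83 CPM. Enzalutamide-treated cells had 29.9 and 25.6 CPM, and those with enzalutamide and 6 Gy had 7.53 and 7.86 CPM. The levels thus fell into 2 ranges, 1 with and 1 without IR.

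**Figure D1:**
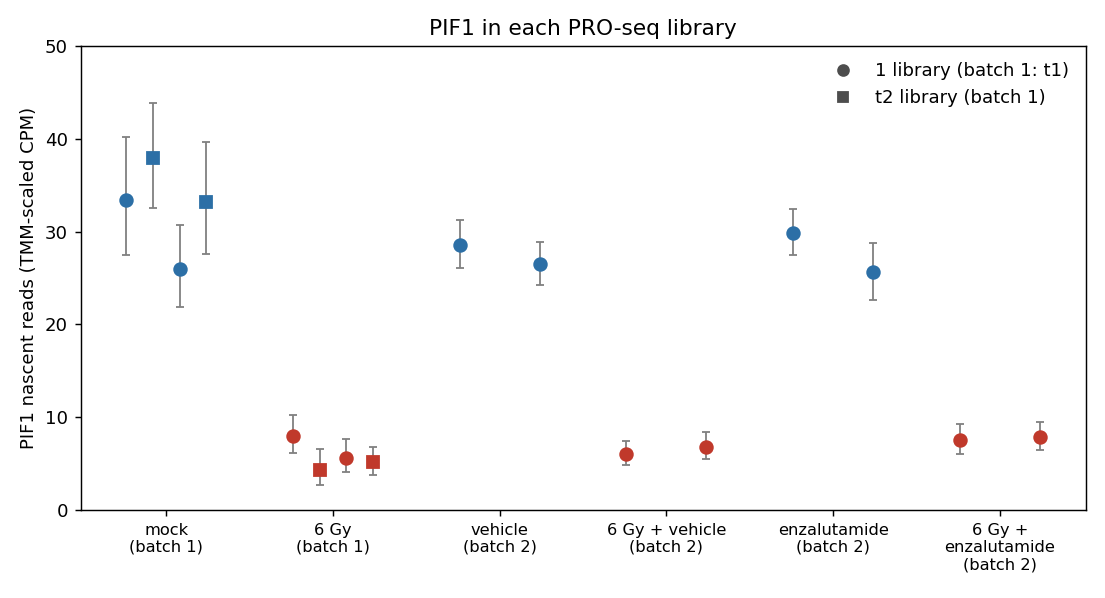
PIF1 level in each of the 16 libraries, in TMM-scaled CPM, by group; blue points are libraries without IR and red points irradiated ones, and bars are exact 95% Poisson intervals of the count, which cover counting error only. The irradiated libraries lie between 4.32 and 8.02 CPM, and those without IR between 25.6 and 37.9 CPM.

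These levels rest on modest counts. PIF1 had 111 to 587 reads in the libraries without IR and 21 to 110 in the irradiated ones. The exact 95% Poisson interval of the library with the fewest reads (6 Gy in batch 1, replicate 1, t2) ran from 2.67 to 6.60 CPM, and that of its t1 partner from 6.16 to 10.3 CPM. Taken over replicates, the group levels were 32.5 ± 5.38 CPM in mock and 6.01 ± 0.876 CPM after 6 Gy in batch 1 (SD, n = 2). They were 27.5 ± 1.48 CPM in vehicle, 6.45 ± 0.537 CPM after 6 Gy with vehicle, 27.7 ± 3.03 CPM in enzalutamide and 7.70 ± 0.234 CPM after enzalutamide with 6 Gy (SD, n = 2). Ordered from high to low by group mean, mock came before enzalutamide and vehicle. The mock replicates (36.3 and 28.7 CPM) lay above both vehicle replicates (28.6 and 26.5 CPM), while the enzalutamide replicates had 29.9 and 25.6 CPM. Mock belongs to batch 1, which was scaled apart from batch 2, and its place in this order was not tested. The 3 irradiated groups followed. The enzalutamide replicates with 6 Gy (7.53 and 7.86 CPM) lay above those of 6 Gy with vehicle and of batch 1 (5.39 to 6.83 CPM), a difference that was tested within batch 2.

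Expressed as a change, PIF1 after 6 Gy was at 18.4% of its mock level in batch 1 (95% interval 14.2% to 23.9%). This is a log2 change of -2.44 (SE 0.171, n = 2 against 2). In batch 2 it was at 23.4% of the vehicle level (18.9% to 29.1%), a log2 change of -2.09 (SE 0.144, n = 2 against 2). With enzalutamide present in both arms it was at 27.7% (22.4% to 34.3%), a log2 change of -1.85 (SE 0.142, n = 2 against 2). Over both batches, leaving out enzalutamide, the log2 change was -2.27 (SE 0.119), a 4.84-fold fall. The fall was larger in batch 1 by 0.37 on the log2 scale, with a 95% interval of the difference from -0.85 to 0.12. It is made of the same contrasts that chose the gene and is likewise no test. That difference was -0.039 (SE 0.271) when the t1 libraries alone stood for batch 1 and -0.74 (SE 0.247) with the t2 libraries alone, for which the batch 1 change itself was -2.10 and -2.83. In bulk libraries, fewer cells that transcribe a gene and less transcription per cell cannot be told apart.

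PIF1 stood near the bottom of each IR comparison in both batches. Of genes that averaged 50 or more counts per replicate, its log2 change ranked 6th from the lowest of 18220 in batch 1, 3rd of 18730 in batch 2 with vehicle, and 3rd of 18730 under enzalutamide. Over all genes tested, with no such minimum, it ranked 7th of 25889, 9th of 28651 and 34th of 28651. With the t1 or t2 libraries alone and the minimum, its rank in batch 1 was 5th of 15607 or 12th of 15347. Of the 5 genes below it in batch 1, 3 passed edgeR's adjusted p of 0.05 there, where 2.82% of all 25889 genes tested did so, 0.819% as lower, and their batch 2 changes in vehicle cells lay between -0.82 and 2.32 over all 5. KRT39, a hair keratin gene and the lowest of them at -5.37, had a positive log2 change of 2.32 in batch 2. The 2 genes below PIF1 in batch 2 with vehicle, ENSG00000259684 (-2.80) and ZIM3 (-2.51), did not pass (edgeR adjusted p 0.40 and 0.269), where 1.1% of 28651 genes did so.

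When 17426 genes were ordered by the smaller of their falls in batch 1 and in batch 2 with vehicle, PIF1 was the 1 gene below -2 in both, and 15 genes were below -1 in both. EDNRB, an endothelin receptor, came next with a smaller fall of -1.62, but its vehicle replicates were uneven at 13.4 and 1.96 CPM and its batch 2 change did not pass (edgeR adjusted p 0.448). AURKA, a mitotic kinase, followed at -1.19, and PRR11, a gene of late cell cycle expression, at -1.12. ZIM3, a zinc finger gene, followed at -1.12 with uneven vehicle replicates (27.2 and 2.01 CPM) and passed in neither batch, and CDCA3, a mitotic entry gene, at -1.11. The gap between PIF1 and these genes chose it and is not a test.

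**Figure D2:**
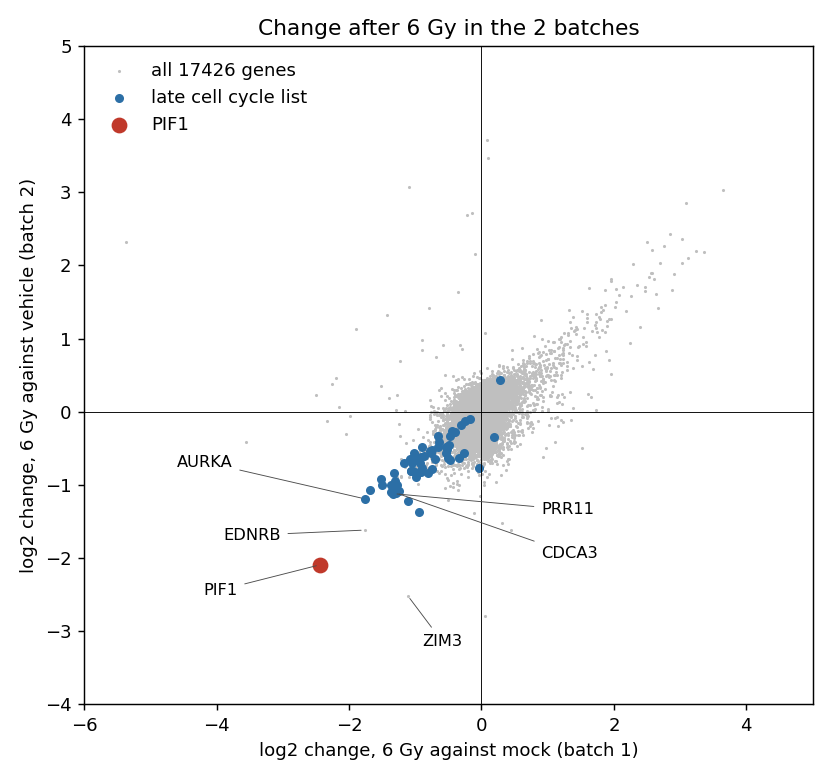
Log2 change after 6 Gy in batch 1 (horizontal) and in batch 2 with vehicle (vertical) for 17426 genes that averaged 50 or more counts per replicate in both batches (grey), the late cell cycle list (blue) and PIF1 (red). PIF1, at -2.44 and -2.09, lies below the late cell cycle genes, and the 5 genes that follow it in order are named.

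Whether enzalutamide changed PIF1 was a comparison that did not choose the gene, although its vehicle libraries did take part in the choice. No effect was detected. Without IR, enzalutamide gave a log2 change of 0.02 (SE 0.126, 95% interval -0.25 to 0.29, edgeR adjusted p 1.00). The replicates of the groups interleaved, with 29.9 and 25.6 CPM under the drug and 28.6 and 26.5 CPM in vehicle, and the sign turned to -0.11 without replicate 3 of enzalutamide and to -0.036 without replicate 4 of vehicle. With IR it was 0.26 (SE 0.16, 95% interval -0.09 to 0.61, edgeR adjusted p 1.00, unadjusted p 0.13). Both irradiated replicates with the drug (7.53 and 7.86 CPM) lay above both with vehicle (6.07 and 6.83 CPM). The libraries of 6 Gy with vehicle helped to choose PIF1 for a large fall, which favours a higher value under the drug here. Averaged over IR, the log2 change under enzalutamide was 0.11 (SE 0.0963, 95% interval -0.10 to 0.31, edgeR adjusted p 0.907). Of 28651 genes, 0.0105% passed for enzalutamide without IR, 0.0105% with IR and 0.0628% averaged over IR. The average interval holds PIF1 between 93.4% and 124% of its level without the drug.

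The change in PIF1 after IR was also compared between vehicle and enzalutamide cells. The fall was smaller under enzalutamide by 0.24 on the log2 scale (interaction, SE 0.203, 95% interval -0.20 to 0.68, edgeR adjusted p 1.00, unadjusted p 0.258). This interval includes no difference and also a fall that is weaker by 0.68, so the data do not show that the responses are alike. The interaction contains the vehicle contrast by which PIF1 was chosen for a large fall. Of 28651 genes 0 passed for the interaction with edgeR, and 343 had an unadjusted p under 0.05.

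**Figure D3:**
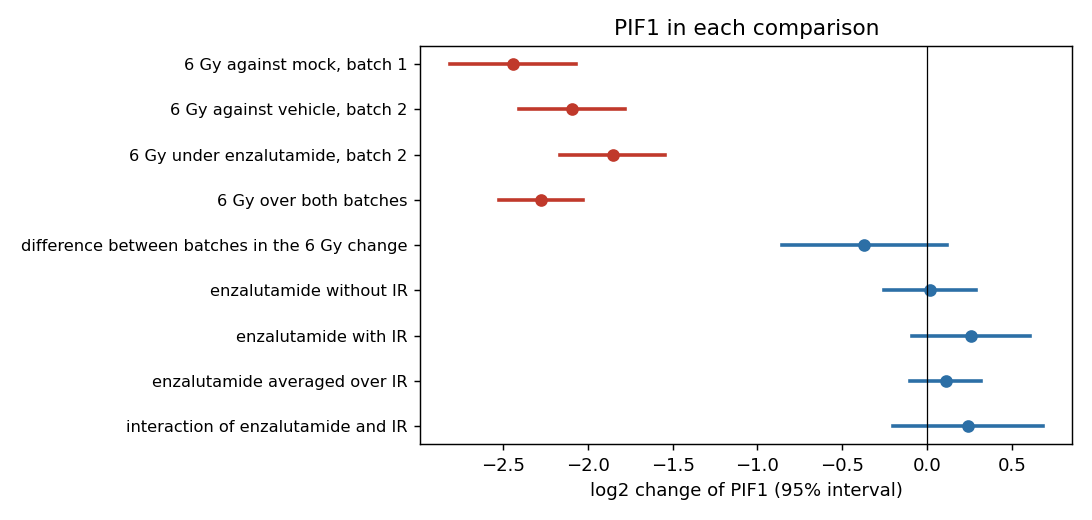
Log2 change of PIF1 with its 95% interval in each comparison, where red marks the 6 Gy comparisons and blue the others, and the red values and the difference between batches rest on the contrasts that chose the gene. The 6 Gy values lie between -2.44 and -1.85, and the intervals of the enzalutamide comparisons, the interaction and the difference between batches include 0.

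The genes beside PIF1 had small log2 changes. The 3 nearest protein-coding genes on each side in RefSeq lay 14.9 to 136 kb away. PLEKHO2, upstream of the PIF1 start, had 20.9 and 23.7 CPM in mock and 24.7 and 22.3 CPM after 6 Gy in batch 1. RBPMS2, an RNA-binding protein gene that lies 40 kb beyond the end of PIF1, had 23.3 and 21.7 CPM in vehicle and 28.4 and 23.9 CPM after 6 Gy in batch 2. PLEKHO2 in batch 2 had 20.9 and 22.5 CPM in vehicle and 19.4 and 20.6 CPM after 6 Gy, so its replicates overlapped between the arms in batch 1 and lay slightly lower after IR in batch 2, while those of RBPMS2 lay slightly higher. Over both batches the log2 changes of the 6 neighbours (ZNF609, OAZ2, RBPMS2, PLEKHO2, ANKDD1A and SPG21) lay between -0.04 and 0.20. Of the 6, 0 passed in that fit or in any of the 3 separate IR comparisons with edgeR or with DESeq2, and 0 had an unadjusted p under 0.05. The lowest edgeR adjusted p over both batches was 0.356. Of all genes, 4.05% passed over both batches and 2.82%, 1.1% and 0.918% in the separate comparisons, so a count of 0 in 6 is near the background.

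The other DNA helicases mostly had small log2 changes. Of 38 other helicase genes tested, 0 were lower after IR in batch 1, in batch 2 with vehicle, under enzalutamide or over both batches, with edgeR or DESeq2, and 0 were lower at an unadjusted p under 0.05. Their log2 changes over both batches had a median of 0.06 and a lowest value of -0.14 (RUVBL2), where the median of all genes tested was -0.02 and 1.66% of 29195 genes passed as lower, so the 0 of 38 is near the background. The share that passed in either direction was 4.05% of all genes and that as higher 2.39%, and 3 of the 38 helicases did so. ASCC3, a helicase of alkylation repair, rose by a log2 change of 0.62 (edgeR adjusted p 0.000209), and RECQL4, a RecQ helicase of replication start, by 0.32 (edgeR adjusted p 0.0245). The third was MCM5, a subunit of the replicative MCM helicase (0.29, edgeR adjusted p 0.0397). ASCC3 went from 212 ± 26.9 to 377 ± 48.0 CPM in batch 1 (SD, n = 2), and its change in batch 2 with vehicle, 0.44, did not pass (edgeR adjusted p 0.111).

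No change was detected in the helicases nearest to PIF1 in function. BLM and WRN, the RecQ helicases of Bloom and Werner syndromes, had log2 changes over both batches of 0.10 and 0.05. BRIP1 and RTEL1, iron-sulfur helicases that unwind G-quadruplexes, had 0.12 and 0.13, and DHX36, which unwinds them in RNA and DNA, had -0.05. DNA2, a nuclease and helicase that shares Okazaki fragment processing with PIF1 in yeast, had 0.00, HELB had -0.03, and TWNK, the mitochondrial replicative helicase, had 0.10. The edgeR adjusted p-values of these 8 genes lay between 0.388 and 0.998. As a list, 0 of 10 G-quadruplex unwinding genes passed in either direction over both batches with edgeR or DESeq2, with 1 at an unadjusted p under 0.05. With 4.05% of all genes passing, 0 of 10 is near the background.

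Per length, PIF1 moved from the upper to the lower end of the helicases. On the scale of CPM per kb of the RefSeq span, it had 2.84 ± 0.47 in mock and 2.41 ± 0.13 in vehicle (SD, n = 2), ranking 8th and 9th of 39 helicase genes from the highest. After 6 Gy it had 0.526 ± 0.0766 in batch 1 and 0.564 ± 0.047 in batch 2 with vehicle (SD, n = 2), ranking 33rd and 34th. Among 16032 protein-coding genes of batch 2, its level per kb went from the percentile 80.1 in vehicle to 39.9 after 6 Gy. Which part of a gene was counted is not given in the sources used here, so the span is a stand-in for the counted length.

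Genes that act with or against PIF1 were read in the same way. Of 22 telomerase and telomere genes, 0 passed in either direction over both batches with edgeR or DESeq2, with 1 at an unadjusted p under 0.05, and their median log2 change was -0.03. With 4.05% of all genes passing, 0 of 22 is near the background. TERT, the reverse transcriptase of telomerase, had 14.6 ± 1.59 CPM in mock and 17.6 ± 0.147 CPM after 6 Gy in batch 1 (SD, n = 2), and its change over both batches was 0.23 (edgeR adjusted p 0.279). Of 23 partners in Okazaki fragment, break-induced and mitochondrial replication, 0 were lower and 2 were higher over both batches, against 1.66% lower and 2.39% higher of all genes, so that the 0 is near the background. These were LIG1, the DNA ligase of Okazaki fragments (0.92, edgeR adjusted p 1.84e-08), and PCNA, the sliding clamp (0.84, edgeR adjusted p 9.76e-06). FEN1, the flap nuclease, had 0.09 (edgeR adjusted p 0.688).

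**Figure D4:**
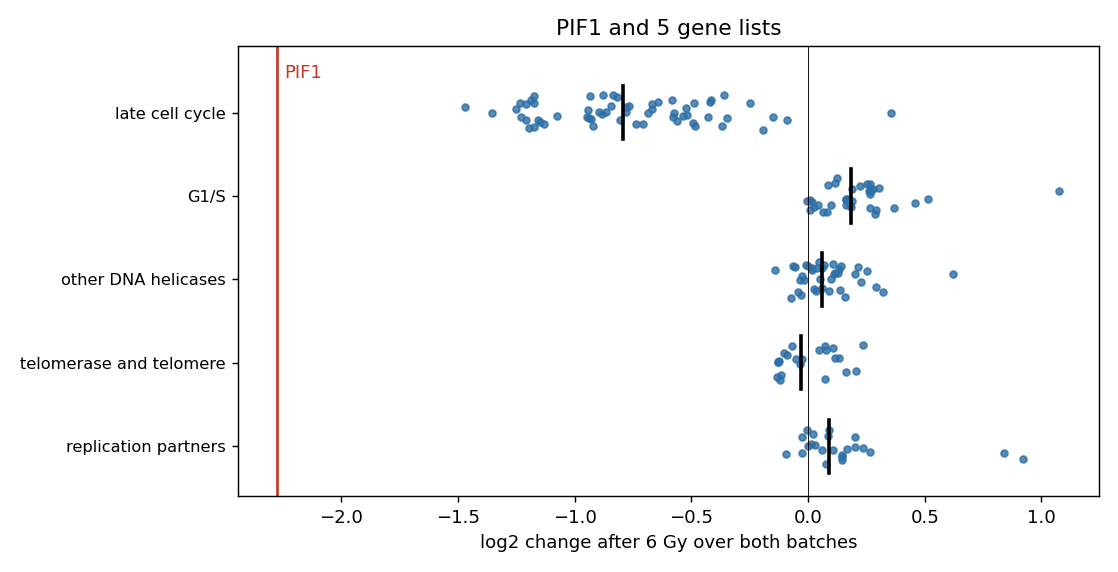
Log2 change after 6 Gy over both batches for the genes of 5 lists (points, spread vertically at random for legibility), with the median of each list as a black bar and PIF1 as a red line. PIF1 at -2.27 lies below all listed genes, the late cell cycle genes have a median of -0.79, and the other 4 lists have medians between -0.03 and 0.19. The place of PIF1 rests on the contrasts that chose it.

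Most genes of the late cell cycle list fell with PIF1. The 59 tested genes are known for expression in G2 phase and mitosis or for activating such genes. The list was written with earlier results of these data known, so its counts are a description. Of the 59 genes, 47 were lower after IR in batch 1, 43 in batch 2 with vehicle and 44 under enzalutamide, and 0 were higher with edgeR. At an unadjusted p under 0.05 there was 1 higher in each of the 3, and DESeq2 gave 45, 46 and 47 lower and 0, 1 and 0 higher. Of all genes tested, 0.819%, 0.353% and 0.293% passed as lower in the same comparisons, and 2%, 0.743% and 0.625% as higher. The count in batch 2 with vehicle was 19 without replicate 4 of 6 Gy with vehicle and 27 without replicate 3 of vehicle. Under enzalutamide it was 20 without replicate 3 and 21 without replicate 4 of enzalutamide with 6 Gy. Over both batches 53 of 60 were lower, where 1.66% of all genes passed as lower and 2.39% as higher. MYBL2, an activator of late cell cycle genes, was higher in that fit (0.35, edgeR adjusted p 0.00669). The summed level of the list lay between 3666 and 4676 CPM in the libraries without IR and between 2179 and 2972 CPM in the irradiated ones. What part the late cell cycle genes' shared change has in the fall of PIF1 was not tested.

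PIF1 fell further than each gene of that list, in all 3 IR comparisons. AURKA was the lowest listed gene in batch 1 (-1.76, SE 0.117), going from 64.3 and 59.6 CPM in mock to 16.9 and 19.5 CPM after 6 Gy. KIF20A, a kinesin of cytokinesis, was the lowest in batch 2 (-1.37 with vehicle), going from 39.5 ± 0.42 to 15.3 ± 0.863 CPM (SD, n = 2). PIF1 lay 0.68 below AURKA in batch 1 and 0.72 below KIF20A in batch 2 with vehicle on the log2 scale. It lay 1.53 and 1.39 below the medians of the list, which were -0.91 and -0.70. PIF1 was chosen for its large fall after IR, so its place below the list and these gaps are a description and not a test. PLK1, another mitotic kinase, had -1.50 and -1.01, CCNB1, the mitotic cyclin B1, had -1.52 and -0.92, and CDC20, an activator of the anaphase-promoting complex, had -1.25 and -1.09 in batch 1 and in batch 2 with vehicle. DLGAP5, a spindle protein, had -1.68 and -1.07.

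Some genes of an earlier part of the cell cycle rose. Of 35 genes known for expression at the G1/S transition, 0 were lower and 9 were higher over both batches with edgeR, and 0 were lower with DESeq2 or at an unadjusted p under 0.05. Of all genes 1.66% passed as lower and 2.39% as higher, so the 0 lower of 35 is near the background. TYMS, thymidylate synthase, rose most (1.08, edgeR adjusted p 1.23e-08), followed by GINS4, a subunit of the replicative helicase complex (0.51, edgeR adjusted p 0.000149). Of 26 p53 target genes, 25 were higher and 0 lower over both batches, with a median of 1.73. These lists too were written with earlier results of these data known, so their counts are a description. CDKN1A, the p53-induced inhibitor of cyclin-dependent kinases, went from 45.1 ± 2.73 to 565 ± 23.3 CPM in batch 1 (SD, n = 2).

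Likeness to PIF1 was also read gene by gene. The log2 CPM of each of 17388 genes was centred within its batch and correlated with that of PIF1 over the 12 replicates, which share the IR contrast that chose PIF1. The 8 most similar genes were RACGAP1 (Pearson's r 0.991), HMMR (0.99), CDCA8 (0.99), UBE2C (0.988), FAM72B (0.987), FAM72A (0.987), CDCA3 (0.986) and NEK2 (0.985). RACGAP1 works in cytokinesis, HMMR at the spindle, CDCA8 in the chromosomal passenger complex, UBE2C in the degradation of mitotic proteins, and NEK2 at the centrosome. FAM72A and FAM72B are near-identical copies whose reads may be split, so they are uncertain and not independent of each other. Which genes made up this group depended on the measure. Of the 8, 1 was among the top 8 by Spearman's rho, and 2 were with the 16 libraries taken singly. The median r over 59 late cell cycle genes was 0.962, against -0.08 over all genes compared.

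The genes that shared the pattern moved less than PIF1, which was chosen for its large fall in these contrasts, so this is no test. HMMR had 114 and 91.7 CPM in mock and 43.0 and 36.8 CPM after 6 Gy in batch 1, a log2 change of -1.37. RACGAP1 had 74.1 and 73.9 CPM in mock and 40.2 and 39.9 CPM after 6 Gy, a log2 change of -0.89. Their replicates did not overlap between the arms, which their choice by correlation with PIF1 over these replicates favoured. Over the 8 genes, the changes in batch 2 with vehicle lay between -1.11 (CDCA3) and -0.73 (RACGAP1), where PIF1 had -2.09.

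**Figure D5:**
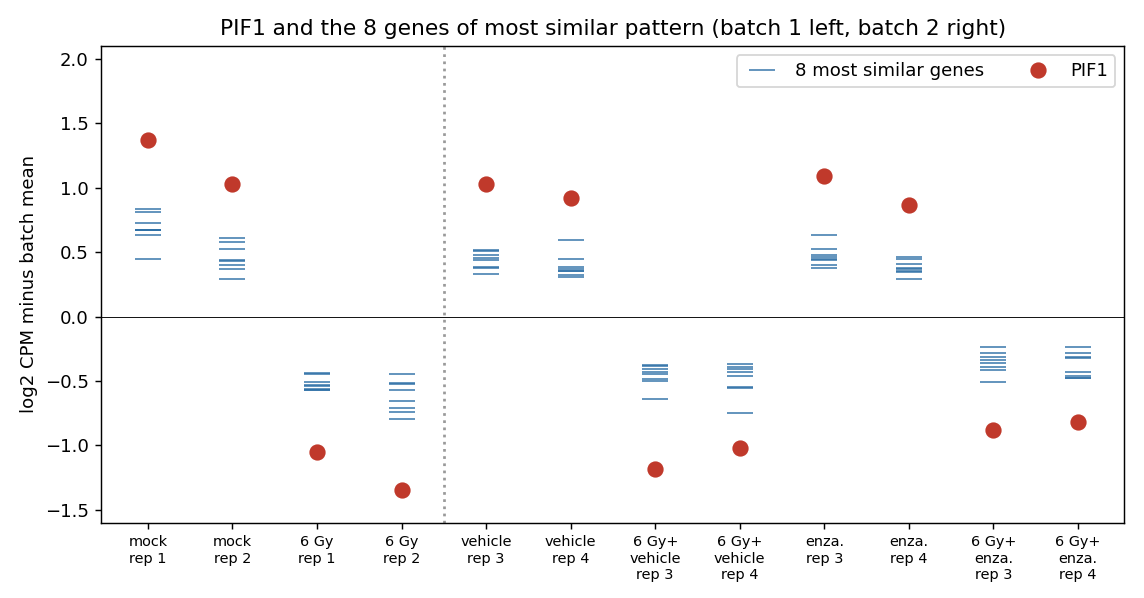
Log2 CPM minus the batch mean in each of the 12 replicates for PIF1 (red points) and the 8 genes of most similar pattern (blue bars), with batch 1 left of the dotted line and batch 2 right of it. All 9 genes lie above 0 in the replicates without IR and below 0 in the irradiated ones. The 8 were picked by Pearson's r with PIF1 over these replicates, so this split is no test. PIF1, chosen for its large fall after IR, lies outside the other 8 in each replicate.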

How the data were processed

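The authors deposited 1 table per batch with unnormalized PRO-seq counts for each Ensembl gene, since the columns hold whole numbers and sum to different totals. Per the submitters' processing notes, the tools were cutadapt 1.8.1, Bowtie2 2.4.4 and SAMtools 1.9 and the build was hg38. The counting tool, annotation, strand use and duplicate removal are not given in the sources used here, so overlapping, antisense and near-identical genes are uncertain. Of 60605 identifiers, 60463 matched a table of gene names. Promoters are from RefSeq (GRCh38.p14).

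Genes were kept by filterByExpr, scaled by TMM, and tested with edgeR 4.0.16 (R 4.3.3) by glmQLFit and glmQLFTest, two-sided, with Benjamini-Hochberg adjustment over all genes tested and a threshold of 0.05. All 8 batch 2 libraries shared 1 fit. Each standard error is the log2 change divided by the root of F. Log2 CPM used a prior count of 2. DESeq2 1.42.0, RLE factors, total counts, no filter, t1 or t2 alone, left-out replicates and a replicate block were alternatives. The steps were tested on simulated data.

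PIF1 and the gene lists, written from general knowledge, were chosen with earlier results of these data known. Named genes were PIF1, the 5 next in the order of falls, the 8 most similar in pattern, 3 neighbours on each side, the 3 lowest and 2 highest per list past the threshold over both batches, and a panel of fixed genes. By the list rule FDXR (log2 change after IR over both batches 2.95), KLK3 (-0.41), SLC45A3 (-0.32) and TMPRSS2 (-0.30) also qualified. Their changes after IR are not described above. The genes that fell further than PIF1, RUVBL2, MCM5 and the printed promoters were named after their values were seen. The summed level of the prostate markers is not reported here.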

Additional observations from a re-analysis of the deposited data

How the results depend on the processing

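The log2 change of PIF1 after IR was negative under every alternative run. In batch 1 it was -2.10 with the t1 and -2.83 with the t2 libraries, and -2.61 to -2.27 when each replicate was left out. Over both batches it was -2.12 with t1, -2.41 with t2 and -2.32 to -2.14 with replicates left out. Leaving out replicates gave -2.18 to -2.01 in batch 2 with vehicle and -1.95 to -1.73 under enzalutamide. The log2 difference between batches was -0.039 with t1, -0.74 with t2 and -0.52 to -0.19 with replicates left out. For enzalutamide without IR, left-out replicates gave -0.11 to 0.12, and the sign reversed without replicate 4 of vehicle (-0.036) and without replicate 3 of enzalutamide (-0.11). They gave 0.17 to 0.34 with IR, 0.06 to 0.18 for the average and 0.14 to 0.37 for the interaction. No alternative brought a PIF1 comparison with enzalutamide past the threshold, with adjusted p-values of 0.741 or more. A left-out replicate leaves a lone sample that is assumed to vary like the others.

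Counts of genes past the threshold moved more, and the cause was not tested. In batch 1, 731 genes became 1157 without a filter, 3995 with t1, 9800 with t2, 2332 with the replicate block and 587 to 1509 with replicates left out. In batch 2 with vehicle, 314 became 624 without a filter, 1315 with the block and 161 to 511 with replicates left out. Under enzalutamide, 263 became 556, 951 and 139 to 434 in the same order. Over both batches, 1182 became 1954 with the block, 657 with t2 and 897 to 1208 with replicates left out. For enzalutamide averaged over IR, 18 became 230 without a filter, 58 with DESeq2, 272 with the block and 7 to 36 with replicates left out. Late cell cycle genes lower after IR numbered 42 to 50 in batch 1, 19 to 48 in batch 2 with vehicle and 20 to 47 under enzalutamide with replicates left out. Among all genes tested, with no count minimum, PIF1 ranked 7th from the lowest in batch 1, 9th in batch 2 with vehicle, 34th under enzalutamide and 4th over both batches.

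The groups of a batch carry the same replicate numbers, but the labels do not say that a number marks a shared culture or day. The replicate differences of groups correlated across genes at 0.247 to 0.44 in batch 2 and 0.36 in batch 1. With the replicate block PIF1 had -2.43 in batch 1, -2.10 in batch 2 with vehicle, -1.85 under enzalutamide and 0.10 for enzalutamide averaged over IR, and the PIF1 comparisons with enzalutamide and the interaction, which alone were tested, did not change their side of the threshold. The fewest PIF1 reads in a library, 21, limit the precision of the irradiated levels of batch 1.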

Other observations

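The genes whose pattern over the 12 replicates was most opposite to that of PIF1, chosen after their values were seen, were the p53 targets SPATA18 (Pearson's r -0.995), TIGAR (-0.994) and DDB2 (-0.994). SPATA18 is known for the removal of damaged mitochondrial proteins, TIGAR for lowering glycolysis, and DDB2 for recognising ultraviolet lesions. These correlations share the IR contrast and the libraries, and are given as a description.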
